A study of Mus musculus with 4 samples.

Results

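The 7 genes described here are S100a8 and S100a9, the S100 alarmins of neutrophils, the neutrophil stefins Stfa2l1 and Gm5483, and 3 further protease-inhibitor family genes that neutrophils carry, Wfdc21, Cstb and Slpi. They were taken by symbol from the 27998 genes of the count tables, and every symbol was found once. Together they held 9512883 of the 534476449 UMIs (unique molecular identifiers, each of which stands for 1 captured RNA molecule), with 5095122 from S100a9, 3201766 from S100a8, 733427 from Slpi, 225639 from Cstb, 110414 from Gm5483, 86559 from Wfdc21 and 59956 from Stfa2l1.

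The cells were CD45+ leukocytes of the nasal mucosa of C57BL/6 mice aged 8 weeks, read by single-cell RNA sequencing. Mice had received vehicle or ribavirin, an antiviral drug, and in each arm a library without OVA (Vehicle, Ribavirin) and a library with OVA (Vehicle-OVA, Ribavirin-OVA) was made. Allergic rhinitis is induced with OVA, the egg protein ovalbumin. In the study's OVA model, mice are primed with OVA and alum in the peritoneum and then challenged with OVA in the nose, and the series describes ribavirin as a spray. The number of mice behind each library is not stated in the labels. Each of the 4 groups had 1 library, so no difference between groups was tested, and the 95% intervals given cover counting error only. Where 4 values follow each other, their order is Vehicle, Vehicle-OVA, Ribavirin, Ribavirin-OVA.

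S100a8 and S100a9 pair to form calprotectin, a calcium-, zinc- and manganese-binding complex that makes up a large part of the neutrophil cytosol and that acts as an alarmin on TLR4 and RAGE once released. Stefins block cysteine cathepsins inside the cell. Cstb (stefin B) is made by most cells, whereas Stfa2l1 and Gm5483 belong to a mouse array of type A stefin genes that is known from neutrophils. Slpi blocks neutrophil elastase and cathepsin G through WAP domains and is secreted by neutrophils and mucosal epithelium, and Wfdc21 encodes a further small WAP-domain protein.

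S100a8 lies on chromosome 3 of GRCm38 (bases 90668978 to 90670035, plus strand), and S100a9 follows 22596 bases downstream on the minus strand (90692632 to 90695721). Stfa2l1 (36156811 to 36161953) and Gm5483 (36184212 to 36188111) are neighbours on the plus strand of chromosome 16, 22258 bases apart. Wfdc21 is on chromosome 11 (83746940 to 83752642, plus strand), Cstb on chromosome 10 (78425669 to 78427622, plus strand) and Slpi on chromosome 2 (164354070 to 164389095, minus strand). All are protein-coding genes in GENCODE M21, which may not be the annotation behind the counts. RefSeq promoters (GRCm38.p6) were matched for 5 of the 7 genes, and 3 of them are shown for the 100 bases that precede the RefSeq start. The S100a8 stretch (chr3:90668971-90669070, plus strand) is given for its TATAAA box, in capitals, 30 to 25 bases before the start. The GENCODE model of S100a8 begins upstream of the RefSeq start. The stefin stretches (Stfa2l1, chr16:36156711-36156810, and Gm5483, chr16:36184112-36184211, both plus strand) are given because the levels of these neighbours were correlated from cell to cell, and the capitals mark the longest run they share, 25 bases.
S100a8: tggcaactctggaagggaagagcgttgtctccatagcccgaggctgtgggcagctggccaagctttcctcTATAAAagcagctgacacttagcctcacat
Stfa2l1: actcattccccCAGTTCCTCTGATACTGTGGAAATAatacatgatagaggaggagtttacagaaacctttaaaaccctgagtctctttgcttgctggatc
Gm5483: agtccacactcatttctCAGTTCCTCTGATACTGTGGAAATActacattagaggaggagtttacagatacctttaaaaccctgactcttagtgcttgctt

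Over the 250 bases before the start, Stfa2l1 and Gm5483 were 72.6% identical, and their transcripts were 77.4% identical, against 48.1% and 54.2% for S100a8 and S100a9. TATAAA was found on either strand in 12.4% of 32851 RefSeq promoters. The letters TTNNGNAA, a core that C/EBP factors can bind, were found on either strand in 36.8% of them, and among the members in S100a8, S100a9, Stfa2l1, Gm5483 and Slpi. GGAAGT, a core of PU.1 sites, was found in 19.7% of promoters and in S100a8, S100a9, Stfa2l1 and Slpi. These are matches of letters only. Because 3′ reads were counted, near-identical ends can split or lose reads. Of the 60-base windows in the last 300 bases of the transcript, 17.0% in Stfa2l1 also occurred in Stfa2 and 31.1% in Gm5483 also occurred in 2010005H15Rik, and the levels of these 2 stefins are uncertain to that extent. No such window was shared for the other 5 genes.

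The libraries held 10311 to 28277 cell barcodes and 91742940 to 171873110 UMIs. After filtering, 66491 cells remained and fell into 41 clusters, which had been made without the 7 genes and their families, so the clusters do not rest on the values below. Cells with 10% or more mitochondrial UMIs made up 5.18% to 14.3% of the barcodes. In T cell-like cells the summed level of the Mup and Obp genes, which nasal gland cells express, ranged from 36.7 CPM in Vehicle-OVA to 3373 in Ribavirin. CPM is the UMIs of a gene as a share of all UMIs of the same cells, scaled to a common total. Between libraries 636 barcodes were shared, and without them the S100a8 plus S100a9 log2 ratio in neutrophil-like cells was -0.33 for Vehicle-OVA over Vehicle and -0.09 for Ribavirin-OVA over Ribavirin, against -0.33 and -0.09 with them.

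Neutrophil-like cells were named from 12 markers, all of which were detected in each library, with a summed level of 21414 to 29456 CPM, against 130 to 570 CPM in T cell-like cells. They numbered 3759 in Vehicle, 6874 in Vehicle-OVA, 4240 in Ribavirin and 1291 in Ribavirin-OVA, or 16.3%, 42.2%, 22.8% and 15.2% of the cells kept. S100a8 in these cells reached 38759.7, 34121, 44195 and 52073 CPM, so both ribavirin libraries were above both vehicle libraries. S100a9 was above S100a8 in each library, at 62719, 46390.3, 78563 and 62998 CPM, lowest in Vehicle-OVA. The 2 genes together took 10.1%, 8.05%, 12.3% and 11.5% of all UMIs of the class, and 1 to 18 cells per library had no UMI of either. The remaining 5 genes were far lower. Stfa2l1 stood at 813, 858, 746 and 557 CPM. Gm5483 stood at 894, 1909.5, 948 and 698 CPM, so Vehicle-OVA was above the other libraries. Wfdc21 stood at 883, 1154, 1069.9 and 2059.8 CPM, highest in Ribavirin-OVA. Cstb was at 559, 508, 479 and 222 CPM, lowest in Ribavirin-OVA. Slpi was at 1587, 2214, 2231 and 1049 CPM, with the lowest value again in Ribavirin-OVA. Since CPM is a share, a lower level of a gene cannot be told apart from more of the other RNA in the same cells.

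**Figure D1:**
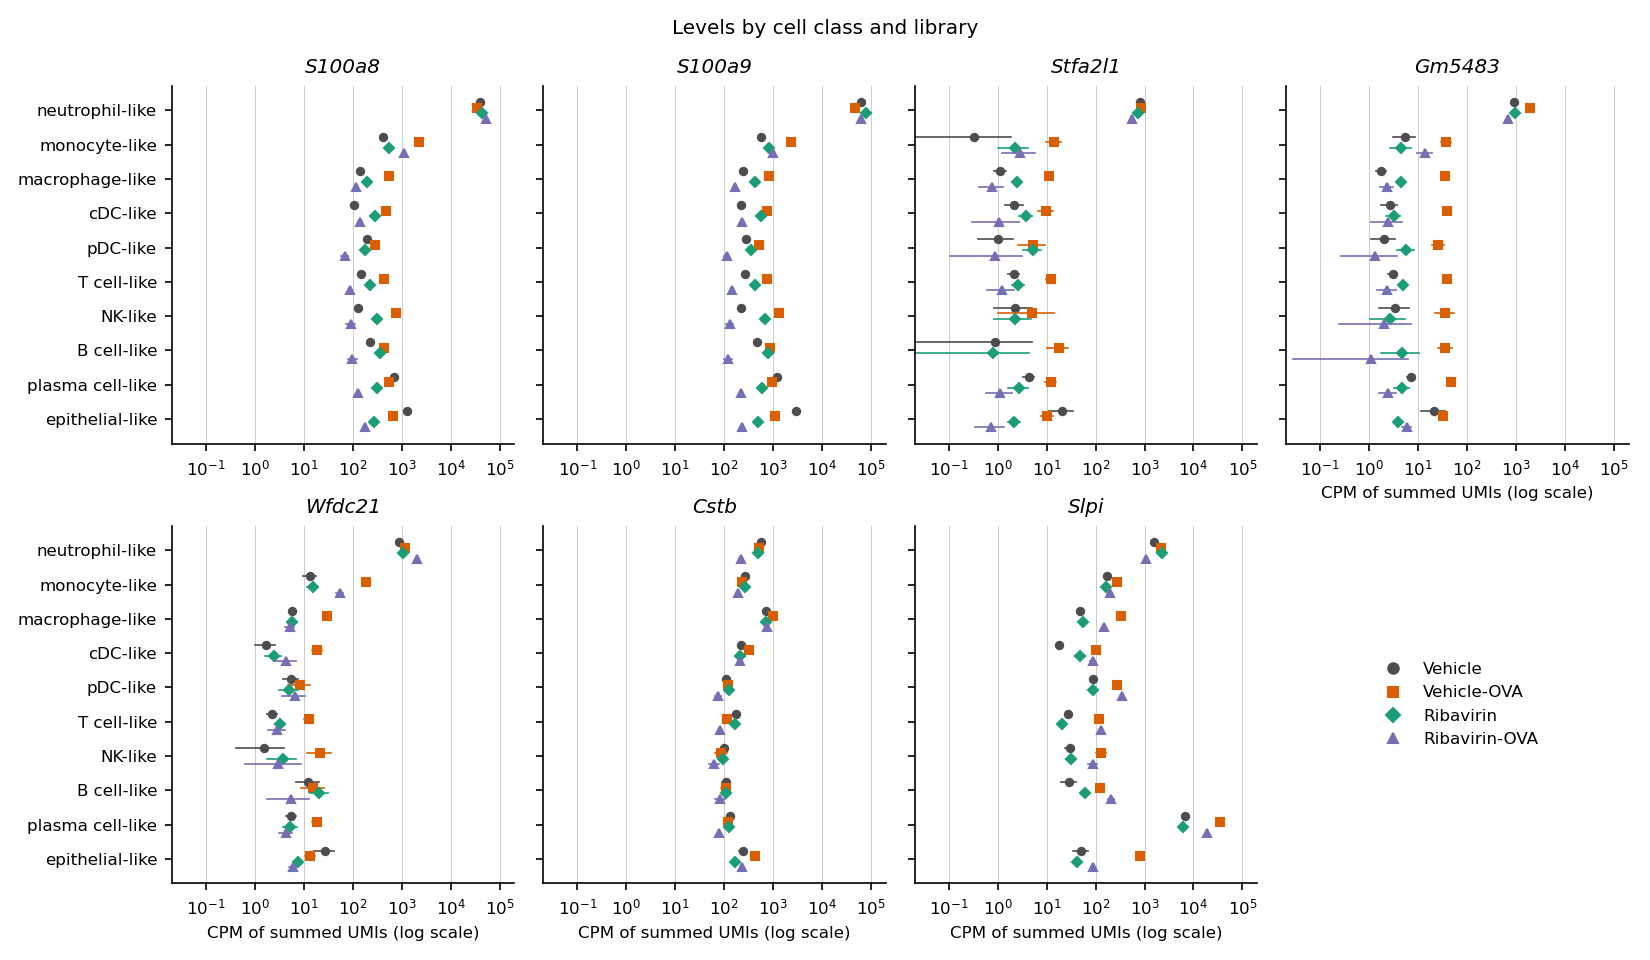
Level of each gene (CPM of summed UMIs, log scale) in 10 named cell classes and 4 libraries, unnamed clusters left out, with exact Poisson 95% intervals, where a level with no UMI is not drawn. S100a8, S100a9, Stfa2l1, Gm5483 and Wfdc21 peak among these classes in neutrophil-like cells, Slpi in plasma cell-like cells, with 34180.3 CPM in Vehicle-OVA, and Cstb in macrophage-like cells, with 983 CPM in Vehicle-OVA.

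The 4 S100 and stefin genes and Wfdc21 were concentrated in neutrophils. In Vehicle-OVA, 89.3% of the S100a8 UMIs, 87.3% of the S100a9 UMIs and 86.3% of the Stfa2l1 UMIs of the cells kept were in neutrophil-like cells. The shares for S100a8 and S100a9 were lower in Vehicle, at 62.0% and 57.8%, where unnamed clusters, described below, held 33.2% and 37.4%. Cstb and Slpi were spread otherwise. Neutrophil-like cells held 4.57% to 20.5% of the Cstb UMIs and 2.45% to 35.4% of the Slpi UMIs of a library.

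Lymphocytes, which are not known to transcribe the S100 alarmins, were used to bound free neutrophil RNA. In T cell-like cells S100a8 was at 149, 440, 222 and 87.7 CPM, and S100a9 at 263, 745, 421 and 143 CPM. As a share of the neutrophil-like level this was 0.385%, 1.29%, 0.502% and 0.168% for S100a8 and 0.420%, 1.61%, 0.536% and 0.227% for S100a9. The other lymphocytes gave higher levels in some libraries. In Vehicle-OVA the 99 NK-like cells had 761 CPM of S100a8 and 1303 CPM of S100a9, and B cell-like cells 443 and 882 CPM. In Ribavirin S100a9 was at 785 CPM in B cell-like and 683 CPM in NK-like cells, so the bound is higher than the T cell-like values alone give. In T cell-like cells Stfa2l1, Gm5483 and Wfdc21 gave the same order of size, from 0.139% for Wfdc21 in Ribavirin-OVA to 2.07% for Gm5483 in Vehicle-OVA. For all 5 genes the T cell-like share was highest in Vehicle-OVA, the library with the most neutrophil-like cells. This did not hold for Wfdc21 in B cell-like cells, which had 12.4, 15.6, 20.8 and 5.57 CPM from 5 to 26 UMIs. After each cell had been thinned to 1000 UMIs, 97.6% to 99.2% of neutrophil-like cells and 14.8% to 43.6% of T cell-like cells had an S100a9 UMI, so a share of cells with this UMI does not tell cell types apart. Before thinning these shares were 98.4% to 99.8% and 52.8% to 89.8%, at median depths of 2017 to 3140 and 4061.5 to 5046 UMIs. The thinning left out 0 to 153 neutrophil-like and 0 to 69 T cell-like cells per library. For Stfa2l1 the thinned shares were 22.3% to 32.7% against 0.170% to 0.812%, and for Wfdc21 they were 26.9% to 42.0% against 0.201% to 1.30%.

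The ratios between genes were also set beside each other. In neutrophil-like cells 14.3, 41.2, 12.1 and 11.1 Gm5483 UMIs were counted per 1000 S100a9 UMIs, and in T cell-like cells 11.5, 52.9, 11.7 and 16.2. Vehicle-OVA was thus the high library in both classes. For S100a8 the T cell-like values were 567, 591, 527 and 613 per 1000 S100a9 UMIs, below the 618, 736, 563 and 827 of neutrophil-like cells. Over all clusters that scored best for neutrophils, unnamed ones included, the values were 576, 721, 540 and 780. These lay within the T cell-like intervals in Vehicle (545 to 589) and Ribavirin (509 to 546), and above them in the OVA libraries. Macrophage-like cells had 139, 539, 199 and 113.7 CPM of S100a8, 0.897 to 1.30 times the T cell-like level. In 3 of the 4 libraries this was below the highest of the T, B and NK-like levels. In UMIs per cell, the measure chosen for reading background, macrophage-like cells were above the highest lymphocyte class in each library. They carried 1.33, 5.88, 2.01 and 1.35 S100a8 UMIs per cell, against 0.829, 4.70, 1.43 and 0.746, at median depths of 9199 to 10217 UMIs. The measures thus differ, and the part of free RNA in the macrophage-like level was not tested.

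Cstb and Slpi were distributed otherwise. Cstb in T cell-like cells, at 171, 114, 163 and 83.3 CPM, was 22.5% to 37.6% of the neutrophil-like level, and Slpi was 0.925% to 12.2% of it. Among the named classes Cstb was highest in macrophage-like cells, at 731, 983, 710.4 and 737 CPM, above neutrophil-like cells in each library. The unnamed cells of Vehicle-OVA were higher still, at 1785 CPM, and cluster 5 among them is described below. The fold for Vehicle-OVA over Vehicle in macrophage-like cells was 1.35 (1.32 to 1.37), and for Ribavirin-OVA over Ribavirin 1.04 (1.02 to 1.06).

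**Figure D2:**
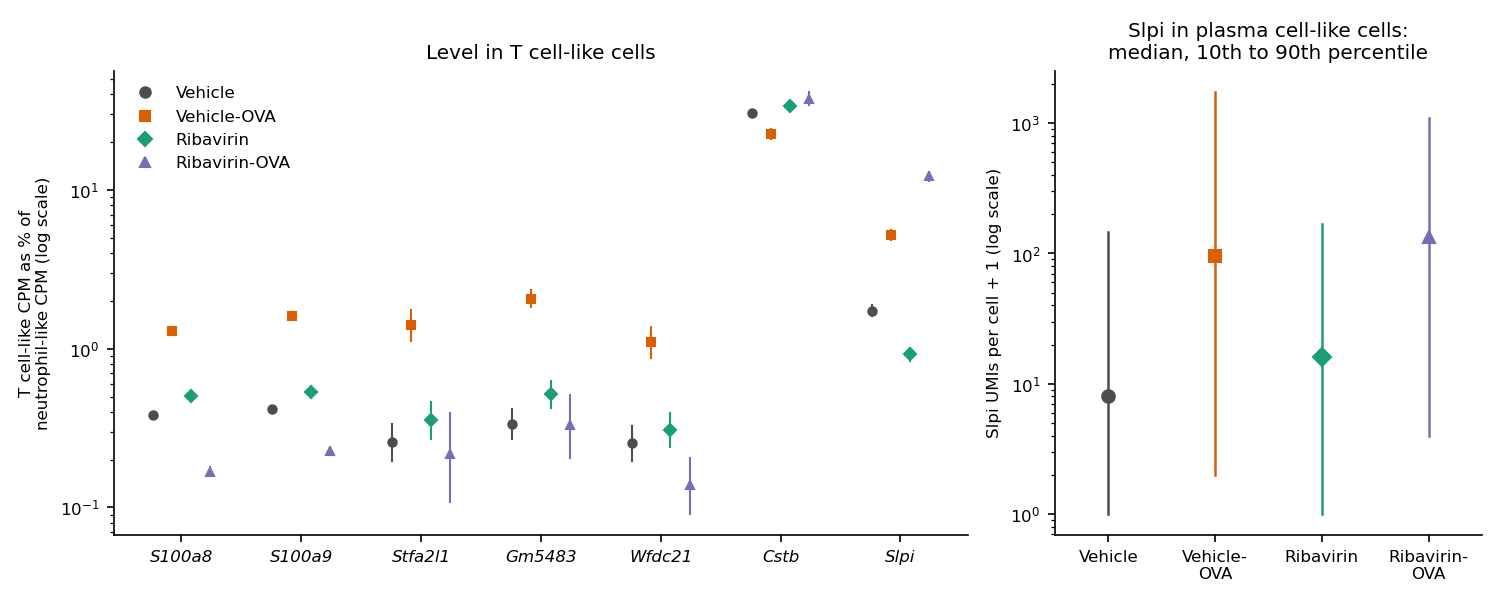
Left, T cell-like level as percent of the neutrophil-like level (log scale) by gene and library, with 95% counting intervals, where Cstb lies at 22.5% to 37.6% and the S100, stefin and Wfdc21 values at 0.139% to 2.07%. Right, Slpi UMIs per plasma cell-like cell plus 1 (log scale), with the median as symbol and the 10th to 90th percentile as line, where the OVA libraries have medians of 94.5 and 132 UMIs and the others 7 and 15.

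Monocyte-like cells exceeded the T cell-like level. S100a8 was at 415, 2276, 559.5 and 1109 CPM, 2.52 to 12.6 times the T cell-like level, while Stfa2l1 was at 0.332 to 14.1 CPM. The S100 UMIs were held by few cells. Only 10, 15, 19 and 15 monocyte-like cells of 498, 244, 577 and 284 had 50 or more UMIs of S100a8 plus S100a9, and the top 1% of the cells held 47.8%, 38.5%, 36.9% and 54.6% of them. The median monocyte-like cell had 1 to 7 such UMIs, against 133 to 245 in neutrophil-like cells. Neutrophil markers summed to 684, 1693, 795 and 1036 CPM in these cells, and the part of neutrophil doublets in the S100 level was not tested.

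Within the neutrophil-like class the genes followed the cluster. Cluster 22 was led by Ngp and Camp, genes of the secondary granules that neutrophils fill in the bone marrow. Ltf, a further such gene, reached 9553 CPM there. The cluster held 102, 137, 228 and 270 cells. Its S100a8 level was 152798, 106647, 127552 and 95741 CPM, the highest of the neutrophil clusters in each library, and S100a8 plus S100a9 took 32.5%, 21.4%, 28.7% and 19.9% of its UMIs. Wfdc21 was highest there too, at 5559, 4536, 4993 and 4294 CPM, whereas clusters 0, 4, 10, 13 and 21 and the unnamed clusters 2 and 5, described below, ranged from 36.3 to 1903 CPM. The 2 S100 genes were nearly equal in this cluster, with 1.01 to 1.25 S100a9 UMIs per S100a8 UMI, against 1.58 to 2.06 in cluster 0. Cstb was low, at 67.6 to 142 CPM.

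Cluster 10, led by Mmp8 and Retnlg, came next, with 73331 S100a8 CPM in Vehicle, 47724 in Vehicle-OVA, 56999.7 in Ribavirin and 41002 in Ribavirin-OVA. Stfa2l1 was highest here, at 1468, 1327, 1023 and 1064 CPM, and Gm5483 stood at 2039, 2234, 1911 and 1172 CPM. Cluster 0, led by Lrg1 and Cxcr2, a receptor of mature neutrophils, was the largest, with S100a8 at 29264, 17175, 33290.2 and 16096 CPM and S100a9 at 54088, 27059, 68571 and 28299.5 CPM. Cluster 13, led by the interferon-induced Ifit3b and Ifit3, had 25448, 22780.2, 24596 and 10903 CPM of S100a8.

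Cluster 4, led by the cytokine genes Csf3 and Cxcl3 with Serpinb2, was almost a cluster of 1 library, since 96.0% of its cells came from Vehicle-OVA, and cluster 21, led by Cxcl3 and Asprv1, came to 88.7% from Ribavirin. Neither can be told apart from its library. Slpi was at 2852 CPM in the Vehicle-OVA cells of cluster 4 and 4443 CPM in the Ribavirin cells of cluster 21, and Gm5483 at 2193 and 1423 CPM.

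Cluster 5 and cluster 2 scored best for neutrophils but stayed unnamed. Cluster 5, led by heat-shock genes (Hspa1b, Hspa1a) and Hmox1, which degrades haem, had 2 detected neutrophil markers, and 80.8% of its cells came from Vehicle-OVA. It held the highest Cstb of these clusters, at 4097, 2656, 2776 and 1758 CPM, and comparatively little S100a8, at 17931, 8592, 10088 and 8873 CPM. Cluster 2 had 4 detected neutrophil markers, but a marker of another class and none of neutrophils among its top 10 genes, and was led by Siglecf and Ltc4s, genes known from eosinophils. Its Siglecf level was 610.2 CPM and that of Cxcr2 1257 CPM, while Epx, the eosinophil peroxidase, was at 0 and Prg2 at 1.24 CPM. S100a8 in cluster 2 was 20534, 6025, 20540.5 and 6156 CPM. Slpi was low there, at 75.2, 214, 77.9 and 279.7 CPM, against 658 to 4501 CPM in clusters 0, 4, 5, 10, 13, 21 and 22. Stfa2l1 was also low in cluster 2, at 43.2 to 204 CPM. A smaller cluster, 24, led by Mup5, likewise scored best for neutrophils and stayed unnamed. It came to 93.7% from Ribavirin, where S100a8 plus S100a9 took 5.89% of its UMIs. Its Siglecf level was 362 CPM.

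**Figure D3:**
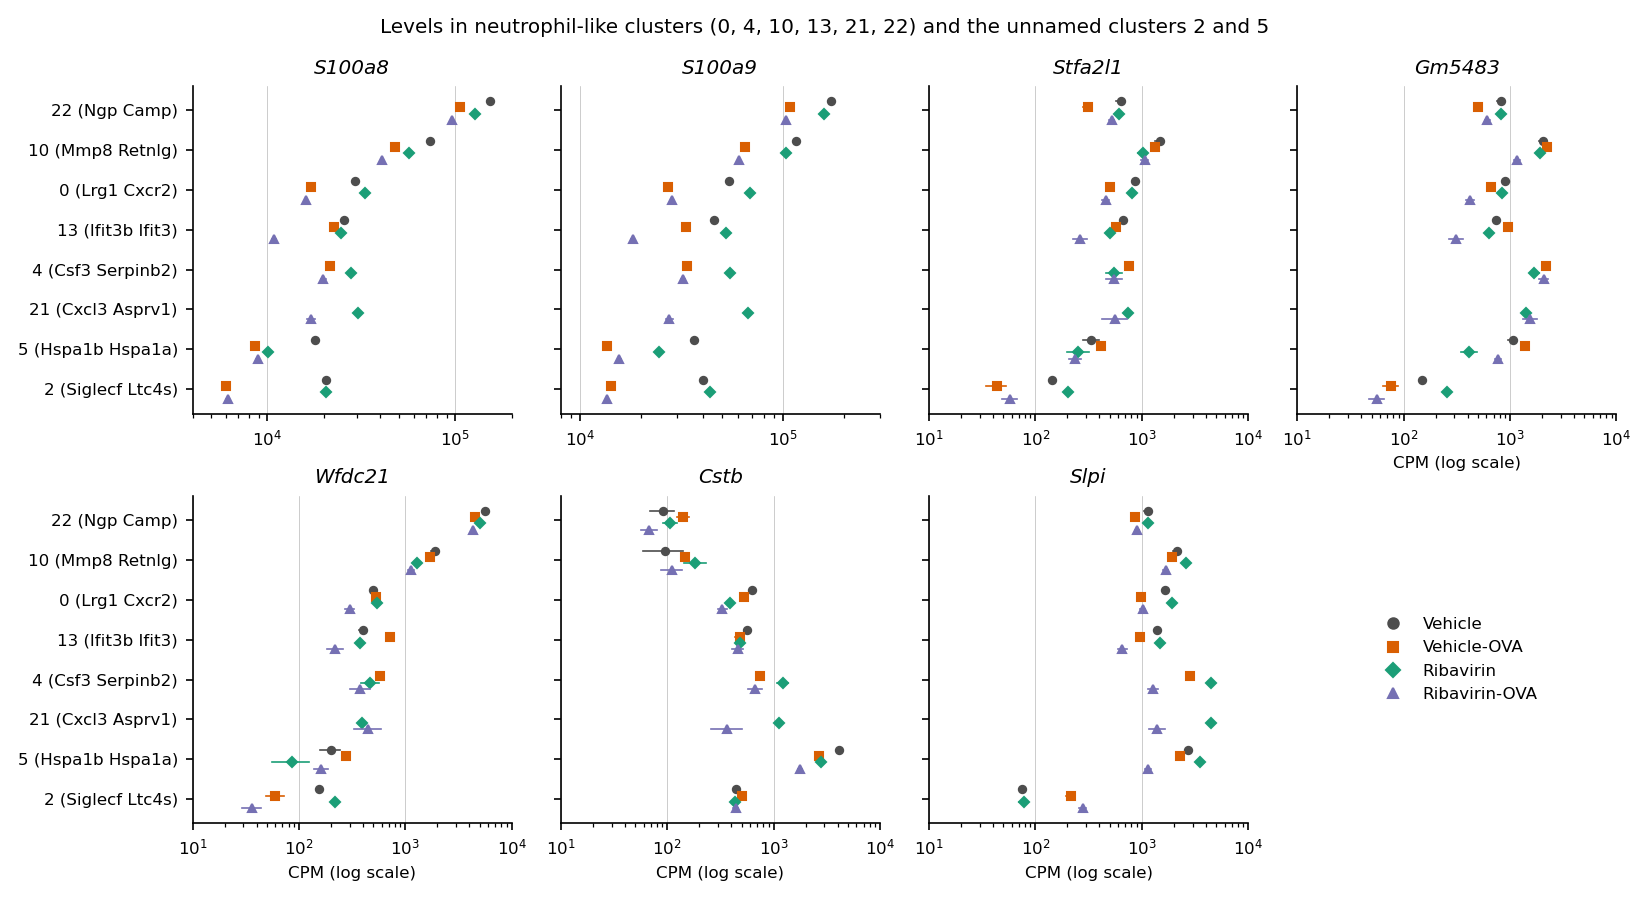
Level of each gene (CPM, log scale, axis ranges differ) by cluster and library for the neutrophil-like clusters and unnamed clusters 2 and 5, in cells of at least 50 per library, with 95% counting intervals. Cluster 22 (Ngp, Camp) carries the highest S100a8, S100a9 and Wfdc21, cluster 5 the highest Cstb, and cluster 2 the lowest Slpi.

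From cell to cell the genes did not all move together. In neutrophil-like cells thinned to 1000 UMIs, Spearman's rho of S100a8 with S100a9 was 0.81 to 0.91 over the 4 libraries, that of Stfa2l1 with Gm5483 0.37 to 0.43, and that of S100a8 with Wfdc21 0.33 to 0.68, the highest value coming from Ribavirin-OVA. S100a9 and Cstb ran in opposite directions, with rho from -0.30 to -0.22. These are descriptions over 1236 to 6721 cells of 1 library, which share depth and cluster structure. Slpi was weakly related to every other member, with rho from -0.13 to 0.23.

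The question of the OVA comparison is how the alarmins and inhibitors differ in allergic rhinitis, without and with ribavirin. Over all cells kept, 6 of the 7 genes were at least 2-fold higher in Vehicle-OVA than in Vehicle, where 9.85% of 16340 genes were, and none was 2-fold lower, where 5.02% were. Gm5483 rested at 74.7 CPM in Vehicle and 663 in Vehicle-OVA, an 8.87-fold difference (8.68 to 9.07), and S100a8 at 4109.8 and 10742 CPM, a 2.61-fold difference (2.61 to 2.62). Cstb was the exception, at 408 and 696 CPM. Between Ribavirin and Ribavirin-OVA, Slpi alone was at least 2-fold higher (7.76% of genes), at 604 and 2832 CPM, and S100a9 alone at least 2-fold lower (1.15% of genes), at 10247 and 5031 CPM. Wfdc21 was at 119 and 145.6 CPM in this pair. The share of neutrophil-like cells moved in the same direction as S100a8, S100a9, Stfa2l1, Gm5483 and Cstb in both pairs, from 16.3% to 42.2% in the vehicle pair and from 22.8% to 15.2% in the ribavirin pair, whereas Slpi and Wfdc21 were higher in Ribavirin-OVA against the lower share. These shares leave out the unnamed clusters that scored best for neutrophils. Of the cells kept, cluster 2 held 12.0%, 3.98%, 8.73% and 10.1%, and cluster 5 held 0.815%, 18.1%, 0.510% and 4.89%. Cluster 24 held 2.49% in Ribavirin. For S100a8, S100a9, Stfa2l1 and Gm5483, levels over all cells alone do not tell more neutrophils apart from more RNA per neutrophil. Levels within neutrophil-like cells follow below. Cstb was mostly outside these cells, which in Vehicle-OVA held 12081 of its 58875 UMIs, against 23007 in macrophage-like and 18034 in unnamed cells.

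Within neutrophil-like cells the differences were smaller. Only Gm5483 was at least 2-fold higher in Vehicle-OVA than in Vehicle, where 5.83% of 9861 genes were, with a fold of 2.14 (2.08 to 2.19). None of the 7 was 2-fold lower, where 18.6% of genes were. S100a8 had a fold of 0.880 (0.877 to 0.884), S100a9 of 0.740 (0.737 to 0.742), Stfa2l1 of 1.06 (1.03 to 1.08), Wfdc21 of 1.31 (1.27 to 1.34), Cstb of 0.909 (0.879 to 0.940) and Slpi of 1.40 (1.37 to 1.42). The direction for the alarmins and Cstb held only for the share of UMIs. In UMIs per neutrophil-like cell, S100a8 was 1.32-fold, S100a9 1.11-fold and Cstb 1.36-fold higher in Vehicle-OVA than in Vehicle, and the total UMIs per cell were higher as well. The small differences of Cstb and Stfa2l1 had no settled direction in CPM either. The log2 ratio of Cstb was -0.14, but lay above 0, at 0.0308 to 0.65, in 7 of 14 alternative settings, and that of Stfa2l1 was 0.08, but -0.0774 and -0.0182 at clustering resolutions of 0.5 and 2. The median log2 ratio of the 7 genes was 0.08, against -0.39 over all genes tested.

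Between Ribavirin and Ribavirin-OVA, Cstb and Slpi were at least 2-fold lower, with folds of 0.462 (0.434 to 0.493) and 0.470 (0.456 to 0.484), where 2.63% of genes were. None of the 7 was 2-fold higher, where 17.2% of genes were. Wfdc21 was nearest to it, with a fold of 1.93 (1.88 to 1.97), and S100a8 had a fold of 1.18 (1.17 to 1.18), S100a9 of 0.802 (0.799 to 0.805), Stfa2l1 of 0.747 (0.716 to 0.779) and Gm5483 of 0.736 (0.709 to 0.764). In UMIs per cell S100a8 was 1.503-fold and S100a9 1.02-fold higher, while Cstb and Slpi remained lower, at 0.590-fold and 0.599-fold. The median log2 ratio of the members was -0.42, against 0.43 over all genes tested.

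These class values mixed clusters that differed in share. Cluster 0 made up 75.6% of neutrophil-like cells in Vehicle and 64.7% in Ribavirin, but 12.5% in Vehicle-OVA, where clusters 4 (54.5%) and 10 (26.5%) held most cells, and 39.0% in Ribavirin-OVA. Cluster 22 was 2.71%, 1.99%, 5.38% and 20.9% of the class. Without cluster 22 the log2 ratio of S100a8 in the ribavirin pair went from 0.24 to -0.59 and that of Wfdc21 from 0.94 to -0.05. The comparison of Ribavirin-OVA with Vehicle-OVA turned with it, from 0.61 to -0.43 for S100a8, from 0.44 to -0.28 for S100a9 and from 0.84 to -0.88 for Wfdc21. The higher class levels of S100a8 and Wfdc21 in Ribavirin-OVA were thus not seen without its Ngp cluster. The S100a8 ratio of the ribavirin pair also lay below 0, at -0.28 to -0.038, in 5 further alternatives, among them a filter of 1000 UMIs and 500 genes and the mean of single-cell CPM.

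**Figure D4:**
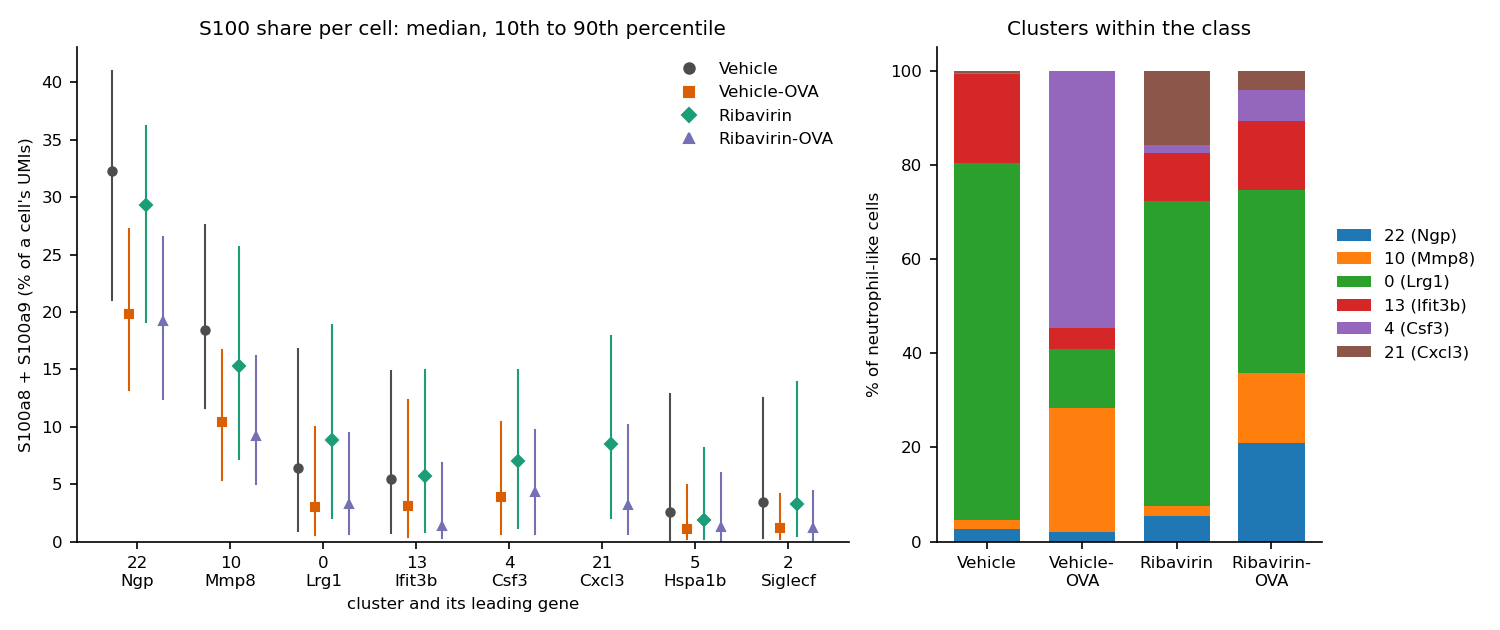
Left, S100a8 plus S100a9 as percent of the UMIs of a cell, by cluster and library (symbol, median, and line, 10th to 90th percentile), in groups of at least 50 cells. Right, share of each cluster among neutrophil-like cells, where cluster 22, with medians of 19.2% to 32.2% S100 UMIs, makes up 20.9% of the class in Ribavirin-OVA and at most 5.38% elsewhere.

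Within clusters, both alarmins were lower with OVA in every case that could be compared, that is in clusters with at least 50 cells in both libraries. The unnamed clusters 2 and 5 are counted among them in both pairs. Cluster 2 gave the lowest fold of both genes in both pairs. S100a8 was lower in 6 of 6 clusters for Vehicle-OVA against Vehicle, with folds of 0.293 to 0.895, and in 8 of 8 for Ribavirin-OVA against Ribavirin, with folds of 0.300 to 0.880. S100a9 was lower in the same 6 of 6, with folds of 0.353 to 0.727, and 8 of 8, with folds of 0.312 to 0.652. In cluster 0, S100a9 was 54088 CPM in Vehicle and 27059 in Vehicle-OVA, and 68571 in Ribavirin and 28299.5 in Ribavirin-OVA. The median cell of cluster 0 gave 6.45% and 3.03%, and 8.87% and 3.28%, of its UMIs to the 2 genes. In UMIs per cell, S100a9 was lower in 5 of 6 and 8 of 8 clusters and S100a8 in 4 of 6 and 8 of 8. Clusters of 1 library share that library and are not replicates.

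Transcript length moved with the same ratios. In cluster 0 the median log2 ratio for Vehicle-OVA over Vehicle was 0.26 over 6521 genes but -0.60 over the 466 whose transcripts are shorter than 1000 bases, as those of all 7 members are. S100a9 was at -0.999, and 25.8% of the short genes and 4.02% of all genes were lower still. For Ribavirin-OVA over Ribavirin the medians were 0.40 and -0.41, S100a9 was at -1.28, and 8.996% of short genes and 1.62% of all genes were lower. Other clusters differed from cluster 0. In the vehicle pair the share of short genes lower than S100a9 ran from 11.6% in cluster 2 to 68.9% in cluster 13. In the ribavirin pair it ran from 4.15% in cluster 13 to 56.7% in cluster 5. Over the whole neutrophil-like class it was 81.2% and 49.1%. The part of transcript length in the S100 ratios was not tested.

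**Figure D5:**
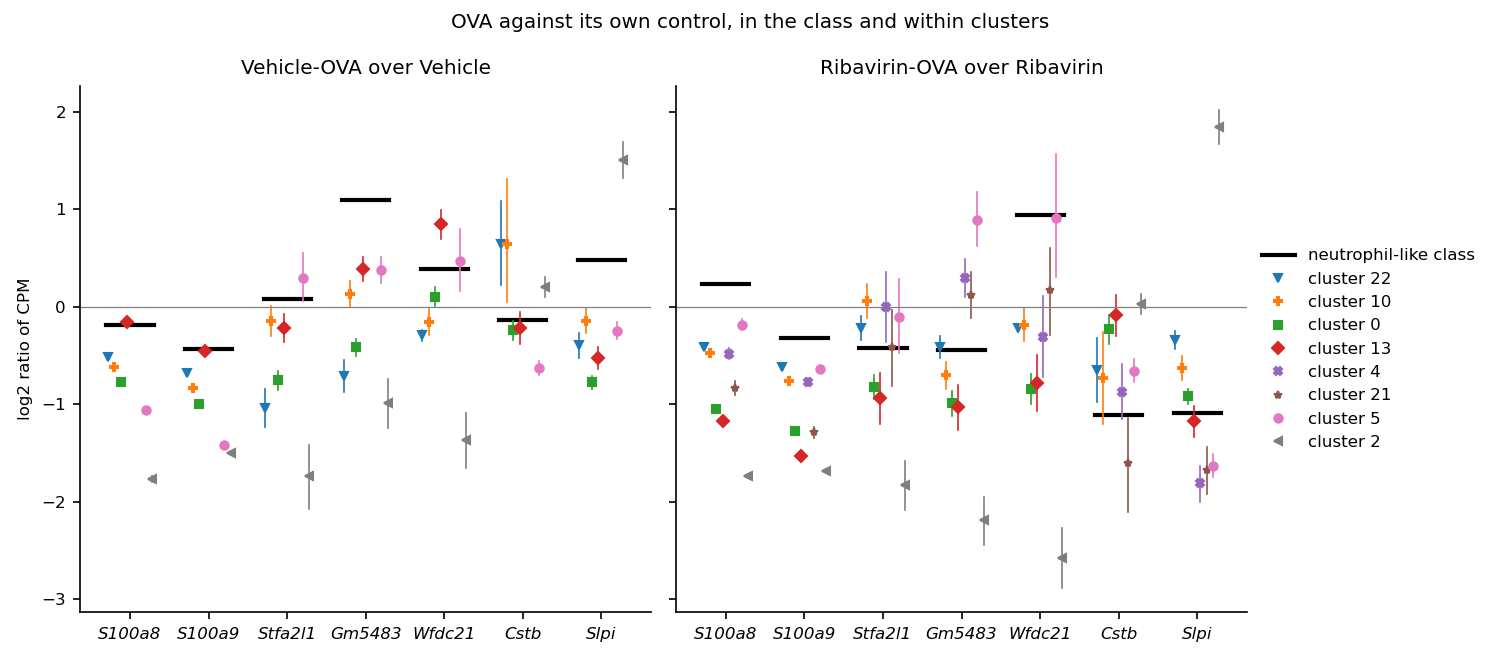
Log2 ratio of CPM, OVA over its own control, for each gene in the whole neutrophil-like class (black bar) and in single clusters (symbols with 95% counting intervals), vehicle pair left and ribavirin pair right. Unnamed clusters 2 and 5 are among the symbols. All S100a8 and S100a9 cluster symbols lie below 0, while the S100a8 class bar is at -0.18 on the left and 0.24 on the right.

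The remaining genes showed no such common direction. Gm5483 was lower in 3 and higher in 3 of 6 clusters of the vehicle pair. Its 2.14-fold class value stood beside the larger share of clusters 4 and 10 in Vehicle-OVA, where its levels were 2193 and 2234 CPM. In the ribavirin pair it was lower in 5 and higher in 2 of 8. Wfdc21 was lower in 3 and higher in 3 of 6, and lower in 5 and higher in 1 of 8. Stfa2l1 was lower in 4 of 6 and 5 of 8 clusters. Slpi was lower in 5 of 6 and 7 of 8, with cluster 2 the exception in both pairs, at 2.84-fold and 3.59-fold higher. Cluster 2 had the lowest Slpi level of these clusters. T cell-like cells had 27.6, 115, 20.6 and 128 Slpi CPM, 4.18-fold and 6.20-fold higher in the same pairs. The part of free RNA in the cluster 2 difference was not tested. Cstb was lower in 3 and higher in 3 of 6, and lower in 6 of 8 with none higher.

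Ribavirin without OVA went with small differences. In neutrophil-like cells S100a8 was 1.14-fold (1.14 to 1.15) and S100a9 1.25-fold (1.25 to 1.26) higher in Ribavirin than in Vehicle, Slpi 1.41-fold (1.38 to 1.43) higher and Cstb 0.857-fold (0.825 to 0.890). None of the 7 was past 2-fold in either direction, where 1.33% of genes were higher and 0.537% lower. Within clusters S100a9 was lower in 3 and higher in 3 of 6, and S100a8, unlike the class value, was lower in 4 and higher in 1 of 6, with a median fold of 0.901. Between the OVA libraries, Gm5483, Cstb and Slpi were at least 2-fold lower in Ribavirin-OVA than in Vehicle-OVA (3.46% of genes), with folds of 0.365 (0.353 to 0.378), 0.436 (0.410 to 0.463) and 0.474 (0.460 to 0.487), while none was 2-fold higher, where 30.1% of genes were. This comparison shares its libraries with the OVA pairs.

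Slpi had its highest level outside neutrophils. Plasma cell-like cells held 6577 Slpi CPM in Vehicle, 34180.3 in Vehicle-OVA, 6227 in Ribavirin and 19045 in Ribavirin-OVA. The 6 plasma cell markers summed to 43164 to 115811 CPM in them, against 254 to 392 CPM in T cell-like cells. The OVA libraries were high and their controls low, with folds of 5.20 (5.16 to 5.24) in the vehicle pair and 3.06 (3.03 to 3.09) in the ribavirin pair. The median plasma cell-like cell carried 7, 94.5, 15 and 132 Slpi UMIs, and 46.0%, 69.4%, 56.9% and 77.7% of the cells carried 10 or more. At most 0.157% of T cell-like cells carried 10 or more. The class held 1430, 314, 571 and 537 cells.

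The plasma clusters differed by library. Cluster 14 held most plasma cell-like cells of Vehicle and Ribavirin, with 7597 and 6711 Slpi CPM, and cluster 23 most of Vehicle-OVA and Ribavirin-OVA, with 42207 and 24199 CPM, so cluster and OVA cannot be told apart there. Cluster 30 was shared by the libraries, and Slpi was 2834 CPM in Vehicle, 14742 in Vehicle-OVA, 1091 in Ribavirin and 12839 in Ribavirin-OVA, again high in both OVA libraries. The summed plasma cell markers went the other way, at 115811 and 52313 CPM in the vehicle pair and 113174 and 43164 in the ribavirin pair. Of the Slpi UMIs of all cells kept, plasma cell-like cells held 82.0%, 66.2%, 55.4% and 92.9%. Among epithelial-like cells, few in a CD45+ preparation, Slpi was at 50.3, 815, 42.3 and 90.5 CPM. Neutrophil markers in these cells summed to 1902, 8004, 1338 and 2669 CPM, also highest in Vehicle-OVA. S100a9 in them was instead highest in Vehicle, at 2933, 1092, 492 and 230 CPM. The part of neutrophil RNA in the epithelial-like Slpi level was not tested.

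Plasma cell-like cells of Vehicle also showed S100a9 at 1189.8 CPM, against 935, 589 and 218 in the other libraries. Of these 16541 UMIs, 13118 lay in cluster 32, shallow cells with a median of 851 UMIs, where S100a9 reached 62544 CPM in Vehicle and 5842 in Vehicle-OVA and where Slpi was only 706 CPM in Vehicle. In cluster 14 S100a9 was 255 CPM in Vehicle, close to the 263 CPM of T cell-like cells.

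Genes of the same families and pathways were read in neutrophil-like cells, with the 2-fold shares above (5.83% higher and 18.6% lower in the vehicle pair, 17.2% and 2.63% in the ribavirin pair) as background. Of 8 measured other S100 genes, none was 2-fold higher with OVA and 5 and 4 were lower in the vehicle and ribavirin pairs. Their median log2 ratios were -1.45 and -0.62. Those of genes with transcripts shorter than 1000 bases were -1.24 (601 genes) and -0.31 (581 genes) in the same cells, so the all-gene shares are a loose background for short genes. The part of transcript length in the S100 family counts was not tested. S100a11 was at 4583, 1431, 4354 and 1729.6 CPM, and S100a4, S100a5 and S100a10, each under 40 CPM, were lower in both pairs as well. S100a6 was at 3505, 2807, 3495 and 4222 CPM. Of 6 measured genes of the stefin array, 3 were higher in the vehicle pair and 1 higher and 1 lower in the ribavirin pair. Stfa2, which shares sequence with Stfa2l1, was at 29.6, 152, 34.7 and 75.2 CPM, and was 2-fold higher with OVA in both. Stfa1 was at 178, 174, 219 and 163 CPM and BC100530 at 75.7, 150.5, 105 and 152 CPM.

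Of 8 cysteine cathepsins, the targets of stefins, 1 was higher and 1 lower in the vehicle pair and none passed 2-fold in the ribavirin pair. Ctsb was at 462, 933, 382 and 706 CPM, and Ctsz at 255, 494, 289 and 236 CPM. Of the 2 other measured cystatins, Cst3 was at 896, 188, 682 and 408 CPM and Cst7 near 0, at 0.912 to 3.33 CPM. Of 3 other WAP-domain genes, Wfdc18 was lower in both pairs, at 249.5, 124, 814 and 340.4 CPM, and Wfdc17 was at 2853, 4178, 2639.7 and 1403 CPM. Elane and Prtn3, the elastase and proteinase targets of secreted inhibitors, were 2-fold higher in both pairs but at 0.115 to 20.7 CPM throughout. Of 7 genes of S100 receptors and their signalling, 4 were higher in the vehicle pair and 2 lower in the ribavirin pair. Cd14, the co-receptor of TLR4, was at 2409, 6670.2, 4037 and 1384 CPM, high in Vehicle-OVA and low in Ribavirin-OVA, and the adaptor Myd88 at 253, 192, 203 and 232 CPM. Of 8 granule genes, 2 were higher in the vehicle pair and 7 in the ribavirin pair, with Ngp at 1846, 1994, 2832 and 11741 CPM, Lcn2 at 1529, 3274, 2200.0 and 4348 CPM, and Cd177 higher in both at 108, 224, 174 and 777 CPM. In the ribavirin pair the granule genes moved with the share of cluster 22, which was 5.38% of the class in Ribavirin and 20.9% in Ribavirin-OVA. In the vehicle pair Lcn2 and Cd177 did not, since that share was 2.71% in Vehicle and 1.99% in Vehicle-OVA. Of 4 genes for C/EBP factors and PU.1, Cebpb was at 4840.0, 6021, 5526 and 3942 CPM and Spi1 at 758, 341, 559 and 452 CPM.

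Over 48 profiles of class and library, S100a8 and S100a9 had a Pearson correlation of 0.99 on the log2(CPM + 1) scale, and the correlations among S100a8, S100a9, Stfa2l1, Gm5483 and Wfdc21 were 0.86 to 0.99. Cstb and Slpi had 0.36 to 0.46 with these 5 and 0.10 with each other. Among 12707 other genes the closest to S100a8 were Gm20406 (0.95), G0s2 (0.94) and Lrg1 (0.93), and the closest to S100a9 were G0s2 (0.93), Gm20406 (0.93) and Asprv1 (0.92). Stfa2l1 was closest to Asprv1 (0.94), Stfa2 (0.91) and Gm20406 (0.91), Gm5483 to Asprv1 (0.91), Mrgpra2a (0.90) and Prok2 (0.89), and Wfdc21 to Gm20406 (0.93), Lrg1 (0.93) and Stfa2 (0.92). Cstb stood apart with Il18bp (0.88), Clec4n (0.86) and Saa3 (0.85), and Slpi with Xbp1 (0.87), the transcription factor of secretory plasma cells, Preb (0.85) and Ell2 (0.84), an elongation factor whose highest level here was in neutrophil-like cells of Vehicle-OVA, at 628 CPM. The profiles of a library share its free RNA and are not independent.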

How the data were processed

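Single-cell RNA-seq libraries of nasal CD45+ cells from 4 groups were used, 1 library each. Per the labels the mucosa was digested enzymatically and CD45+ cells were enriched on magnetic beads (the series design names a fluorescence sorter), and droplets were made with 10x reagents. The authors deposited integer UMI counts per gene and barcode, not normalized, which were made with Cell Ranger 5.0.0 on mm10 per the submitters' processing notes. The annotation is not given in the sources used here.

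The cell filter asked for 200 genes, 500 UMIs and a mitochondrial share under 10%. Simulated doublets were used to mark 3.53% to 10.3% of cells per library, at an expected 0.4% per 1000 barcodes, which sets the share marked, and these cells were removed. Clustering (2000 variable genes without 40 family genes, 30 components, 15 neighbours, Leiden, resolution 1, igraph 0.11.9, no batch correction) was run over the 4 libraries together. Clusters were named "-like" from marker lists, by best mean log2 fold, with at least 3 markers detected (2-fold, 10% of cells) and no more markers of other classes than of their own among the top 10 genes, and otherwise left unnamed, so differences from the study's own naming can come from these rebuilt names.

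Levels are CPM of the UMIs summed over the cells of a class in 1 library, computed in Python 3.11.15 (numpy 2.4.6, scipy 1.17.1). Intervals are 95% and exact (Poisson for levels, conditional binomial for ratios, Clopper-Pearson for shares). No p-value was possible with 1 library per group. Gene-wide shares past 2-fold used genes with at least 50 UMIs and a pseudocount of 1 CPM. Related genes were named where past 2-fold the same way in both OVA pairs (at most 4 per list) or among the 2 with most UMIs, and the 3 most similar genes per member were named among genes with at least 500 UMIs. Positions came from GENCODE M21 and promoters from RefSeq. The interval and ratio steps were tested on simulated data. Members, markers and lists were chosen with earlier results of these data known. Alternatives covered clustering, cell filters, doublets, naming, scaling and thinning.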

Additional observations from a re-analysis of the deposited data

Results flagged for a closer look

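Several genes had OVA differences of opposite sign in the vehicle and the ribavirin pair, each beyond its counting interval. The difference between the pairs was not tested, since each pair holds 1 library per group. In neutrophil-like cells, the log2 ratios in the vehicle pair and then the ribavirin pair were -0.18 and 0.24 for S100a8, 0.0777 and -0.42 for Stfa2l1, 1.09 and -0.44 for Gm5483, and 0.48 and -1.09 for Slpi. For S100a8 the opposite signs were absent without the Ngp cluster, where the ratios were -0.03 and -0.59, and in 5 further alternatives, and for Stfa2l1 at resolutions of 0.5 and 2, where the vehicle pair gave -0.0774 and -0.0182. Without the Ngp cluster the class values of Gm5483 were 1.16 and -0.35, and those of Slpi 0.51 and -1.05. Within single clusters the signs were not opposite for S100a8, which was lower with OVA in 6 of 6 and 8 of 8 clusters, or for Slpi, which was lower in 5 of 6 (median fold 0.800) and 7 of 8, and Gm5483 was lower in 3 and higher in 3 of 6 in the vehicle pair. In UMIs per cell S100a8 was higher with OVA in both pairs, at 1.32-fold and 1.503-fold.

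Over all cells kept, the log2 ratios were 1.39 and -0.49 for S100a8, 1.07 and -1.03 for S100a9, 2.09 and -0.99 for Stfa2l1, 3.15 and -0.83 for Gm5483, and 0.77 and -0.14 for Cstb. The share of neutrophil-like cells moved in the same directions, from 16.3% to 42.2% and from 22.8% to 15.2%, with the unnamed clusters that scored best for neutrophils left out.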

How the results depend on the processing

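The log2 ratio of S100a8 plus S100a9 in neutrophil-like cells was -0.33 for Vehicle-OVA over Vehicle and -0.09 for Ribavirin-OVA over Ribavirin, and stayed below 0 in all 14 alternatives, each of which kept a share of UMIs. Measured in UMIs per cell, which is no share, the direction turned in both pairs, to 1.19-fold and 1.196-fold higher. The pairs of values, in that order, were -0.56 and -0.25 at resolution 0.5, -0.51 and -0.57 at resolution 2, -0.38 and -0.0673 at a mitochondrial limit of 20%, -0.32 and -0.35 at 5%, -0.53 and -0.45 under a filter of 1000 UMIs and 500 genes, -0.41 and -0.12 with doublets kept, -0.328 and -0.0768 with the gene families kept in the clustering, -0.40 and -0.32 with classes from marker UMIs of single cells, -0.35 and -0.39 from means of single-cell CPM, and -0.36 and -0.11 scaled without the members. The median of the members, 0.08 and -0.42, was 0.16 in the vehicle pair at resolution 0.5, 0.21 and -0.63 at resolution 2, -0.28 in the ribavirin pair at 20%, 0.17 and -0.57 at 5%, 0.18 in the vehicle pair under the 1000 UMI filter, 0.13 and -0.34 with doublets kept, and 0.59 in the vehicle pair with single-cell classes. Requiring 3 detected markers before choosing the best class changed none of the 4 values.

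Further alternatives were chosen after seeing the data. With the unnamed clusters nearest to neutrophils joined, the S100 ratios were -0.30 and -0.41 and the median in the vehicle pair 0.65. Without shared barcodes the S100 ratio in the ribavirin pair was -0.088. Without the Ngp cluster the S100 ratios were -0.23 and -0.83, and the median in the ribavirin pair -0.59. These values can be set only against counting error, since no replicate gives a wider spread. Of 60 log2 ratios, 48 kept their sign throughout. Those that did not were, in the vehicle pair, Cstb and Stfa2l1 in neutrophil-like cells, in the ribavirin pair, S100a8 and Wfdc21 in these cells and Cstb over all cells (0.0185 from means of single-cell CPM), for Ribavirin over Vehicle, Gm5483 (-0.0399 at resolution 2 and -0.0032 at 20%), Stfa2l1 (0.20 with the unnamed clusters joined) and, over all cells, Slpi (0.14 from single-cell means), and for Ribavirin-OVA over Vehicle-OVA, S100a8, S100a9 and Wfdc21, without the Ngp cluster, and Slpi over all cells (0.0957 at 5%). T cell-like levels as percent of neutrophil-like ranged over all libraries and alternatives from 0.148% to 4.74% for S100a8 and from 0.200% to 5.54% for S100a9. No paired analysis was possible because each group has 1 library and the labels carry no replicate numbers.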
